A study of Mus musculus with 6 samples.

Results

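The 10 genes that carry long-chain fatty acids into the muscle cell and break them down in the mitochondrion were followed from uptake to oxidation in gastrocnemius, a calf muscle, from aged and young mice. They were Cd36, Slc27a1 and Fabp3 for uptake and carriage, Cpt1b and Cpt2 for entry into the mitochondrion on carnitine, the acyl-CoA dehydrogenases Acadvl, Acadl and Acadm, and Hadha and Hadhb, the subunits of the trifunctional protein. The members were all probe sets that the platform's gene table maps to exactly 1 of these 10 symbols, which gave 17 of 45037 probe sets and 9 of the 18193 genes that have such a probe set. The only Cpt1b probe set in that table is shared with Chkb and the transcript Gm44502, so Cpt1b could not be read and is not described further. The arrays were 3 of aged muscle (replicates 51, 52 and 53) and 3 of young muscle (replicates 1, 2 and 3), each with total RNA of a male mouse of the strain written C57B1/6 in the labels, with a normal karyotype and no treatment named. No source used here states the ages. Nothing in the labels ties the arrays of a group to separate animals, so every p-value reflects the spread among these samples alone, which may be technical.

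A working muscle takes long-chain fatty acids from the blood with the help of the membrane proteins CD36 and FATP1 (the product of Slc27a1), and FABP3 carries them through the cytosol. They are activated to acyl-CoA, passed to carnitine by CPT1 at the outer mitochondrial membrane and passed back to coenzyme A by CPT2 at the inner membrane. Inside, an acyl-CoA dehydrogenase fitted to the chain length takes the first step of each turn of beta-oxidation, and the trifunctional protein carries out the remaining steps on long chains. Slow and oxidative fibres depend most on this route, and many of its genes are targets of the PPAR nuclear receptors, which bind DNA with the retinoid X receptor.

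Of the 9 genes with a probe set, Fabp3 was the only one with a probe set that passed the test, and it was lower in aged muscle, at 0.398 of the young signal on its brighter probe set. Cd36, Slc27a1 and Hadhb had positive changes of about the same size on their brightest probe sets (0.53, 0.58 and 0.49 on the log2 scale), and Cpt2 and Acadvl had negative ones (-0.59 and -0.47). Acadl (-0.075) and Acadm (0.055) had the smallest. None of these 7 genes passed, and the dim Hadha could not be tested. The test was limma on log2 signal, two-sided, over all 22519 probe sets bright enough to be tested, with Benjamini-Hochberg adjustment and a threshold of 0.05. Of the 16 member probe sets tested 1 passed, where 1.05% of all tested probe sets did (0.742% lower, 0.311% higher). At an unadjusted p under 0.05 there was also 1 of 16, against 10% of all tested probe sets. On 2 of the 16 the aged and young arrays did not overlap, 1 higher and 1 lower, against 16.2% of all (7.41% higher and 8.74% lower). The median change of the 16 was 0.070, and that of all tested probe sets was 0.0079.

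Promoters are shown for Fabp3, the member that passed, and for Cd36, Acadvl, Acadm and Hadhb. Those of the other members are not shown. RefSeq promoter windows of mouse build GRCm38.p6, 250 bases before and 50 bases after a start, were found for 9 of the 10 genes, in 11 windows because Slc27a1 has 3. They were searched on both strands for AGGTCA, which many nuclear receptors bind, for the E-box CANNTG and for TATAAA. The AGGTCA letters were found in 3 of the 11 windows, those of Cd36, Acadvl and Acadm, and in 16.3% of all 32851 promoter windows. CANNTG was found in 6 genes and in 72.3% of all windows, and TATAAA in 0 genes and in 13.6% of all windows. A gene was counted if any of its windows matched, so the 6 genes are not a share of windows. A match is a description of these letters only. The Fabp3 window (chr4:130308488-130308787, plus strand) held 1 E-box, in capitals, which begins 45 bases before the start.
Fabp3: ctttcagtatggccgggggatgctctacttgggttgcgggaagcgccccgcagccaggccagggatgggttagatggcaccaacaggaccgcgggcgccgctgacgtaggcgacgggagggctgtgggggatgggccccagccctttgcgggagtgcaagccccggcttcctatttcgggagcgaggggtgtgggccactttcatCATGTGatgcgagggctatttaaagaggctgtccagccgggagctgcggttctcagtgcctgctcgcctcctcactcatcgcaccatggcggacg

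E-boxes are not marked in the next windows, where the capitals mark AGGTCA or its reverse complement TGACCT. They begin 228 bases before the start in Cd36 (chr5:17835847-17836146, minus strand), 87 bases before it in Acadvl (chr11:70015379-70015678, minus strand) and 249 bases before it in Acadm (chr3:153944594-153944893, minus strand). Cd36 belongs to uptake and the other genes to the acyl-CoA dehydrogenases, and none of the 3 passed the test.
Cd36: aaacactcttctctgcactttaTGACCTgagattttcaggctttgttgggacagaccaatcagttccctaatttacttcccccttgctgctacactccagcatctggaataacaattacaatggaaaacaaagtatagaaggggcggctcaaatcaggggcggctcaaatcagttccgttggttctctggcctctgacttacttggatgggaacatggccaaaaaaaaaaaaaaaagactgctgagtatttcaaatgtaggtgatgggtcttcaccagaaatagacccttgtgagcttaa
Acadvl: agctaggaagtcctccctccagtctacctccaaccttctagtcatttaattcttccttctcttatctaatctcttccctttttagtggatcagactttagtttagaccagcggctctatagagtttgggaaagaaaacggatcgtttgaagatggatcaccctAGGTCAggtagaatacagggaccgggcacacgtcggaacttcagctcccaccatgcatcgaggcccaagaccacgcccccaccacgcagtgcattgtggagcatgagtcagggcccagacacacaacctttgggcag
Acadm: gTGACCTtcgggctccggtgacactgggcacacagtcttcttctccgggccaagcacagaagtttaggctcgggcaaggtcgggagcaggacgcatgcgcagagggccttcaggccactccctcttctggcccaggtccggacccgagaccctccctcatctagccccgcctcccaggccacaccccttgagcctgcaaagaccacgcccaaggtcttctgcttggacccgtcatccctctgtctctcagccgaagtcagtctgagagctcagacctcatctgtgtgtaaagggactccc

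Hadha and Hadhb lie head to head on opposite strands, with starts 273 bases apart, so that their promoter windows share 228 bases. The Hadhb window (chr5:30155003-30155302, plus strand) is shown with the shared stretch in capitals, because the 2 genes encode partner subunits and only Hadhb was bright enough to be tested.
Hadhb: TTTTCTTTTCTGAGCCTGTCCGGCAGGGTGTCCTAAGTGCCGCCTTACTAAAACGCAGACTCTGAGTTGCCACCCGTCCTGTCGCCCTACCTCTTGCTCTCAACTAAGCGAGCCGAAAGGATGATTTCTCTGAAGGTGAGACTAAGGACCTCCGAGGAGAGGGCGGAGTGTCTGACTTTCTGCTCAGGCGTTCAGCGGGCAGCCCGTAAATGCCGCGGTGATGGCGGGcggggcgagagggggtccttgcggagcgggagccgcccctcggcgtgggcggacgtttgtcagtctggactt

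All arrays had the same trimmed mean signal, and their median signals lay between 637 and 833. The run settings place the 3 young arrays and aged replicate 51 on a first fluidics station, the unit that washes and stains. Aged replicates 52 and 53 ran on a second one with a differently named protocol. The log2 ratio of 3 prime to 5 prime signal on the Gapdh and beta-actin control probe sets, a measure of RNA quality, was 2.11, 2.00 and 2.86 in aged muscle and 1.71, 1.77 and 1.75 in young muscle. The groups did not overlap, and the difference was 0.58 (exact two-sided permutation test, p = 0.1, the smallest that 3 against 3 allows). All 8 skeletal muscle markers were bright enough to be tested, as were 1 of 4 cardiac and 2 of 3 liver markers. Of the 3 blood markers Hbb-bt had no probe set, and Hba-a1 and Alas2 were too dim. The liver marker Alb was at 2.73 in aged minus young muscle (limma adjusted p = 0.342), and its groups did not overlap. The young mean of Alb lay below the limit for dim probe sets. So did those of the other tested liver marker, Ttr (8.85), and of the tested cardiac marker, Myh6 (8.65). All of these were tested only through their aged arrays.

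**Figure D1:**
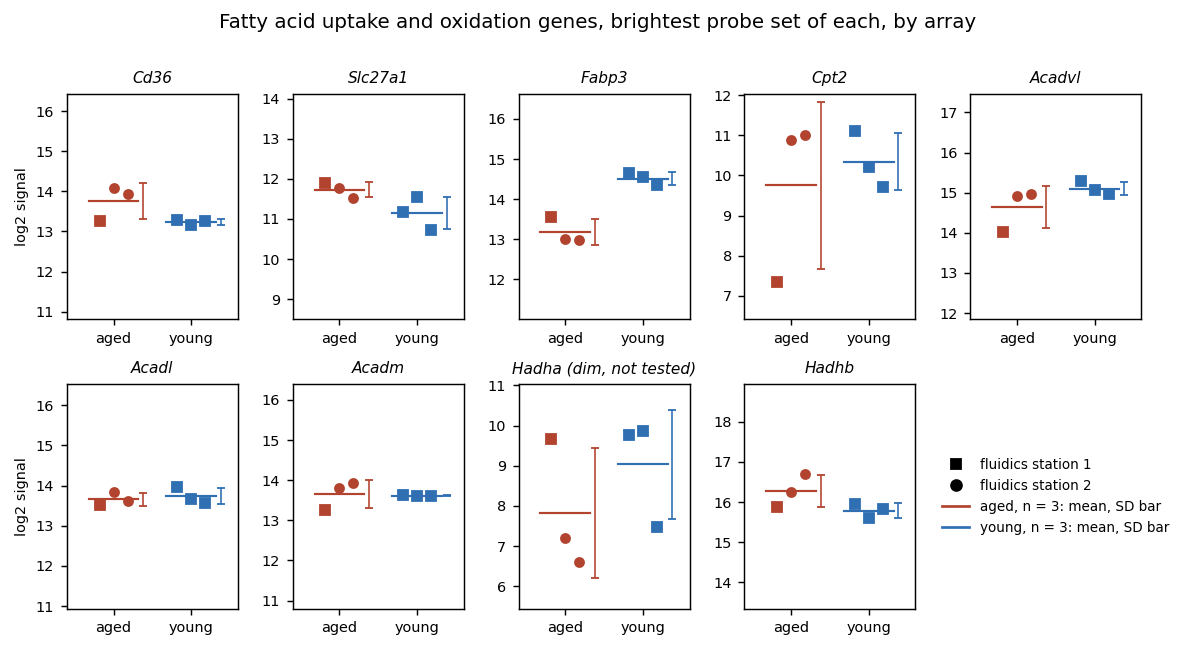
Log2 signal (y axis, a span of the same length in each panel) of the brightest probe set of each gene on the 3 aged and the 3 young arrays. Squares are arrays of fluidics station 1 and circles of station 2, lines are means and bars are the SD of 3 arrays. Fabp3 is the gene whose 3 aged arrays all lie clearly below the 3 young ones, and on Cpt2 and Acadvl aged replicate 51 stands below the other 5 arrays.

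Uptake begins at the membrane with Cd36, the scavenger receptor that binds long-chain fatty acids. Its brightest probe set, 1423166_at, had log2 signals of 13.26, 14.09 and 13.94 in aged muscle (replicates 51, 52 and 53) and 13.28, 13.16 and 13.26 in young muscle (replicates 1, 2 and 3). Aged replicates 52 and 53 lay above all young arrays and replicate 51 lay among them, so the groups overlapped. The change was 0.53 ± 0.25 (SE, n = 3 per group), with a 95% interval of -0.025 to 1.08 and an adjusted p of 0.518. On 1450884_at the groups did not overlap, with 12.41, 12.44 and 12.63 in aged and 12.05, 11.97 and 12.24 in young muscle, and the change of 0.41 did not pass (adjusted p = 0.629). The remaining Cd36 probe set, 1450883_a_at, was at 0.085, between -0.62 and 0.79. Within the first fluidics station, 1 aged array against 3 young ones, Cd36 was at 0.025 on its brightest probe set, a value set by aged replicate 51. Cd36 is also made by fat cells, capillary endothelium and macrophages. In these arrays 2 of 5 tested adipocyte markers rose (Adipoq by 1.89 and Retn by 2.35), where 0.391% of all tested genes were called higher. The summed signal of the adipocyte markers was 582278 to 695460 in aged and 598236 to 735174 in young muscle. Most of it was Car3, which muscle also makes. None of 5 tested endothelial and none of 5 tested macrophage markers passed, with 0 of either at an unadjusted p under 0.05 (limma). The summed signals, which include the markers too dim to be tested, overlapped between the groups. For endothelium the sums were 8740 to 13615 in aged and 10202 to 13654 in young muscle. For macrophages they were 63662 to 99764 in aged and 58865 to 76054 in young muscle, most of it Csf1r. No marker of these lists was at a signal of 0. Their part in the Cd36 signal was not tested.

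Slc27a1 encodes FATP1, a membrane acyl-CoA synthetase that takes part in fatty acid uptake. Its brighter probe set, 1435658_at, had log2 signals of 11.89, 11.76 and 11.52 in aged and 11.18, 11.54 and 10.73 in young muscle. The lowest aged array lay just below the highest young one. The change was 0.58 ± 0.34 (95% interval -0.17 to 1.32, adjusted p = 0.604). Without young replicate 3 it was 0.37, and with 1 array left out it ran up to 0.77. The other probe set, 1422811_at, was at 0.40 (95% interval -0.58 to 1.38, adjusted p = 0.801), and its groups overlapped too. Both Slc27a1 probe sets and all 3 of Cd36 had a positive change, and each interval includes 0.

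Fabp3 encodes the heart and muscle fatty acid binding protein, the main cytosolic carrier of long-chain fatty acids in oxidative fibres. On 1416023_at the log2 signals were 13.56, 13.01 and 12.99 in aged muscle and 14.65, 14.55 and 14.35 in young muscle. The highest aged array lay well below the lowest young one. Aged muscle averaged 13.19 ± 0.32 and young muscle 14.51 ± 0.15 (SD, n = 3 each). Fabp3 fell by 1.33 on the log2 scale (SE 0.23, 95% interval -1.83 to -0.82, limma adjusted p = 0.0138), to 0.398 of the young signal with an interval of 0.281 to 0.565. In bulk muscle, fewer fibres of a type and less RNA per fibre cannot be told apart. The other Fabp3 probe set, 1444844_at, gave 11.66, 11.43 and 8.76 in aged and 11.58, 8.39 and 11.26 in young muscle. Each group held 1 array far below its other arrays, and the change was 0.21 ± 0.89 (95% interval -1.73 to 2.15, adjusted p = 0.954). That interval includes the value of the first probe set, so the second neither repeats nor contradicts it.

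The Fabp3 difference was negative in all 16 alternatives, but in most of them it could not have been otherwise. The filter and trend settings do not alter the estimate. With every aged array below every young one, leaving arrays out could not reverse it. The Fabp3 difference passed in 7 of the 16. It did not pass without aged replicate 52 (-1.24, adjusted p = 0.0823), without young replicate 1 (-1.26, adjusted p = 0.105), young replicate 2 (-1.31, adjusted p = 0.102) or young replicate 3 (-1.41, adjusted p = 0.0505). Within the first fluidics station the Fabp3 change was -0.96 (adjusted p = 0.0893). A station covariate gives the same estimate by construction, here with an adjusted p of 0.145. With the RNA quality ratio as a covariate it was at -1.15 (adjusted p = 0.169). It did not pass when limma's spread was not allowed to vary with brightness (adjusted p = 0.395), and averaging both probe sets gave -0.56 (adjusted p = 0.728). Over all alternatives the adjusted p lay between 0.00596 and 0.728.

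**Figure D2:**
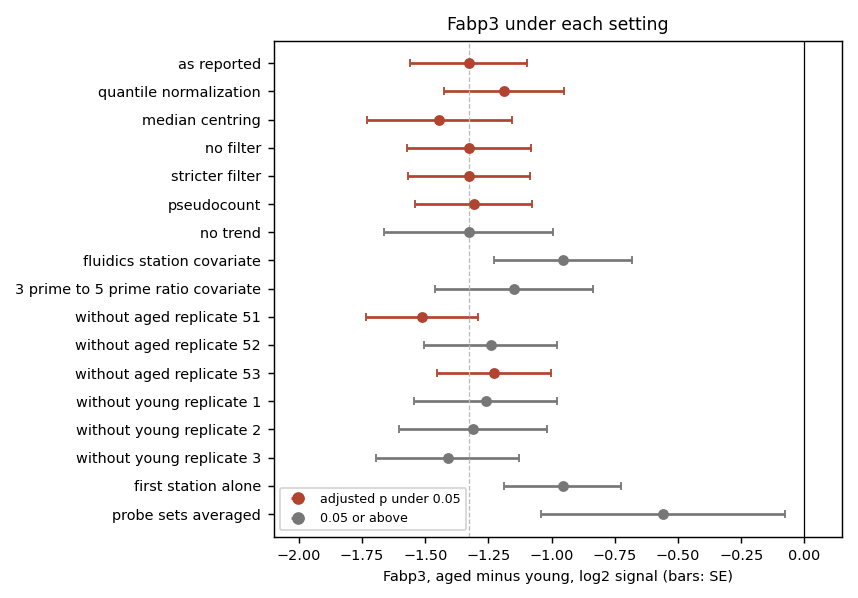
Change of Fabp3 in aged minus young muscle (x axis, log2 signal, bars are limma's SE) under the reported setting and 16 alternatives (y axis). Red points have an adjusted p under 0.05. All points lie below 0, between -1.51 and -0.56, and 9 of the alternatives are grey.

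Markers of slow oxidative fibres, which hold much FABP3, also had negative changes, with a median of -3.35 against -1.33 for Fabp3. Of 8 tested, 7 fell, where 1.0% of all tested genes were called lower on their brightest probe set. Tnni1 did not pass (limma adjusted p = 0.0966). Tnnt1, one of the 7, and Tnni1 had aged means below the limit for dim probe sets and were tested only through their young arrays, so their fold changes rest on a dim group. Myh7, another of the 7, had aged replicates 51 and 53 below that limit too, at 8.34 and 7.72. The summed signal of the list was 19865 to 23563 in aged and 149059 to 182668 in young muscle. Of the 8 general skeletal muscle markers all changes were negative with a median of -0.82 and none passed. An unadjusted p under 0.05 (limma) was found for 7 of them, against 10% of all tested probe sets. The summed signal of these markers was 1604494 to 1976620 in aged and 2411677 to 3021749 in young muscle. Their part in the Fabp3 change was not tested. Among the 18715 other named probe sets tested, those most like Fabp3 over the 6 arrays, by the root mean square difference of log2 values after taking out each mean, were Ndufc2 (0.111), Homer2 (0.121) and Aspn (0.121). Ndufc2, a subunit of respiratory complex I, fell by 1.34 (adjusted p = 0.0115). Homer2, a scaffold protein (-1.17, adjusted p = 0.054), and Aspn, a matrix proteoglycan (-1.32, adjusted p = 0.204), did not pass. The 3 most like Cd36 were Pm20d2 (0.086), Hsd17b12 (0.091) and Siah1a (0.0912), with changes of 0.46, 0.51 and 0.47, and none passed. These were picked for their likeness, so their changes are a description.

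Cpt2, the inner membrane carnitine palmitoyltransferase, was the only one of the 10 listed genes at the carnitine step that could be read. Its brighter probe set, 1416772_at, had log2 signals of 7.35, 10.89 and 11.01 in aged and 11.10, 10.21 and 9.72 in young muscle. Aged replicate 51 stood far below the other 5 arrays, and the other aged arrays lay within the young range. The change of -0.59 ± 0.89 had a 95% interval of -2.52 to 1.34 (adjusted p = 0.846), and without aged replicate 51 it was 0.61 (-1.22 to 0.61 with 1 array left out). The other probe set, 1447820_x_at, lay between 8.87 and 9.63 in aged and between 9.08 and 9.59 in young muscle, with a change of -0.17 (adjusted p = 0.956). Its 3 aged arrays spanned the whole young range, and aged replicate 51 was its highest array. These 2 probe sets therefore order the aged arrays differently.

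The acyl-CoA dehydrogenases share a mechanism and differ in chain length. Acadvl, the very long-chain enzyme bound to the inner membrane, had 1 probe set, 1424184_at, with log2 signals of 14.03, 14.91 and 14.97 in aged and 15.28, 15.06 and 14.96 in young muscle. Aged replicate 51 was lowest, replicate 52 lay just below the young arrays and replicate 53 just inside them. The change was -0.47 ± 0.26 (95% interval -1.04 to 0.10, adjusted p = 0.586). Within the first station it was at -1.07 (adjusted p = 0.0619), which rests on aged replicate 51 alone. Without aged replicate 51 the change was -0.17.

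Acadl, the long-chain enzyme, gave 13.51, 13.83 and 13.62 in aged and 13.95, 13.66 and 13.57 in young muscle on 1448987_at. The groups overlapped throughout, and the change of -0.075 had a 95% interval of -0.55 to 0.40 (adjusted p = 0.926). Its dimmer probe set, 1448988_at, ranged from 7.01 to 10.05 in aged and from 8.43 to 10.37 in young muscle (-0.97 ± 1.05, adjusted p = 0.791), with an aged mean below the limit for dim probe sets. Acadm, the medium-chain enzyme, gave 13.27, 13.81 and 13.92 in aged and 13.63, 13.60 and 13.61 in young muscle. Its young arrays lay within 0.03 of each other, and the aged ones lay on both sides of them. The change of 0.055 had a 95% interval of -0.46 to 0.57 (adjusted p = 0.954). For Acadl and Acadm the intervals on the bright probe sets leave out a 2-fold change in either direction. They do not show that the levels were equal.

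**Figure D3:**
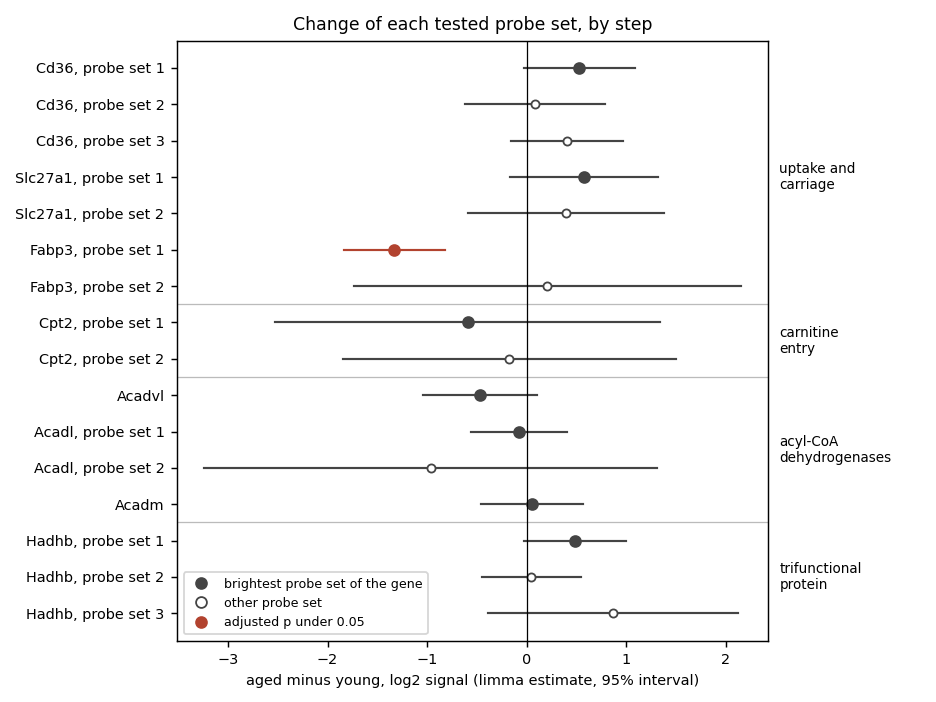
Change of each of the 16 tested probe sets in aged minus young muscle (x axis, log2 signal, lines are 95% intervals of limma) ordered by step from uptake to the trifunctional protein. Filled points are the brightest probe set of a gene, and red marks an adjusted p under 0.05. Only the brighter Fabp3 probe set has an interval, -1.83 to -0.82, that leaves out 0.

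The trifunctional protein joins a hydratase and a dehydrogenase on its alpha subunit (Hadha) with a thiolase on its beta subunit (Hadhb). Hadhb had 3 probe sets. The brightest, 1437172_x_at, of a kind prone to cross-hybridisation, gave 15.88, 16.26 and 16.69 in aged and 15.95, 15.60 and 15.82 in young muscle. Aged replicates 52 and 53 lay above all young arrays and replicate 51 among them, as on the brightest Cd36 probe set. The change was 0.49 ± 0.24 (95% interval -0.031 to 1.00, adjusted p = 0.527). Without aged replicate 53 it was 0.28. Set within the first station, the Hadhb change was 0.093, and a covariate for the RNA quality ratio left it at 0.085. On 1426522_at Hadhb gave 13.63, 14.27 and 13.93 in aged and 14.03, 13.84 and 13.83 in young muscle, with a change of 0.046 (95% interval -0.45 to 0.54). The third probe set, 1442732_at, was at 0.87 ± 0.58 (adjusted p = 0.65). All 3 changes were positive, and none passed.

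Hadha had 1 probe set, 1452173_at, which was too dim to be tested, with a mean log2 signal of 8.43 against a limit of 9.08. Its log2 signals were 9.67, 7.19 and 6.61 in aged and 9.77, 9.86 and 7.47 in young muscle. Within each group the lowest and the highest array lay more than 2 log2 units apart, and the groups overlapped, so no level is drawn from this probe set. The probe sets most like it were Faap100 (0.359), Scaf4 (0.416) and Caly (0.42). The difference is not scaled to the spread of a profile, so these values cannot be set against those for Fabp3 and Cd36.

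The members also differed in how their arrays fell out. On the brightest probe sets aged replicate 51 was the lowest aged array for 6 of 8 genes (36.1% of all tested genes) and the lowest of all 6 arrays for 4 of 8 (22.2%). The exceptions to the first were Slc27a1 and Fabp3, where aged replicate 51 was the highest aged array. The aged SD was larger than the young SD for 6 of 8 genes, against 59.2% of all tested genes. Aged replicate 51 was the only aged array of the first fluidics station, and only the aged group mixed stations. Array and station cannot be told apart in these counts. Between pairs of members the profiles of Cd36 and Hadhb (root mean square difference 0.191) and of Acadl and Acadm (0.201) were most alike. Fabp3 was nearest to Acadvl, at 0.651. The SE of a change ranged from 0.22 to 1.05 among the member probe sets.

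Other genes of the route were taken from 6 lists holding 73 genes, of which 61 were tested. In these lists 2 genes rose, 0 fell and 59 did not pass, where 1.39% of all 11763 tested genes were called on their brightest probe set (0.391% higher and 1.0% lower). The median change of the 61 was 0.16, and that of all genes was 0.00279. Fabp4, the fatty acid carrier of fat cells and endothelium, had log2 signals of 16.82, 17.58 and 17.17 in aged and 16.19, 15.96 and 16.09 in young muscle. The groups did not overlap, and Fabp4 rose by 1.11 ± 0.23 (adjusted p = 0.0433). Among the 5 tested adipocyte markers Adipoq rose by 1.89 and Retn by 2.35, and Cidec was at 1.63 (adjusted p = 0.353). Lep was at 0.20 (adjusted p = 0.876) and Car3 at -0.087 (adjusted p = 0.923), and the median of these 5 markers was 1.63. Their part in the Fabp4 change was not tested. Only 1 of 4 Fabp4 probe sets passed, the lowest was at -0.63, and with all 4 averaged the change was 0.61 (adjusted p = 0.355). Within the first station it was 0.74 (adjusted p = 0.131; 0.288 under a station covariate). Fabp4 also did not pass after median centring (adjusted p = 0.272), without the trend (adjusted p = 0.475), with the RNA quality ratio as a covariate (adjusted p = 0.149), or without aged replicate 52 or young replicate 1, 2 or 3 (adjusted p 0.165 to 0.253).

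Acaa1b, a peroxisomal thiolase, had log2 signals of 12.90, 13.87 and 12.32 in aged and 11.38, 10.21 and 11.15 in young muscle. All aged arrays lay above all young ones, and Acaa1b rose by 2.12 ± 0.43 (adjusted p = 0.0336). Acaa1a, a close copy that may share signal with it, was at -0.23 on its brightest probe set. Acaa1b did not pass without the trend (adjusted p = 0.395). It was at 1.99 within the first station (adjusted p = 0.11; 0.184 under a station covariate), at 2.01 after median centring (adjusted p = 0.0658), and did not pass without aged replicate 51 or 52 or young replicate 1, 2 or 3 (adjusted p 0.0535 to 0.178).

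Among 14 supply and activation genes the median was 0.38, with 9 positive. Fabp4 was the 1 that passed. An unadjusted p under 0.05 (limma) was found for 5 of the 14, against 10% of all tested probe sets. The groups did not overlap for 6, against 16.2% of all tested probe sets. Of these, Fabp4, Pnpla2, Plin2 and Dbi were higher in aged muscle, and Gpihbp1 and Cav1 were lower. The lipid droplet coat gene Plin2 was highest (1.30, adjusted p = 0.207), and Gpihbp1, which holds lipoprotein lipase on the capillary wall, was lowest (-1.62, adjusted p = 0.179). Of 8 genes of the carnitine system 5 were positive and none passed, with 1 at an unadjusted p under 0.05 (limma). They ran from Slc22a5, the carnitine transporter, at -0.43 to Acaca, which makes malonyl-CoA, at 1.63 (adjusted p = 0.0778). Acacb, which also makes malonyl-CoA, was at 0.20 (adjusted p = 0.871). Of 16 other mitochondrial oxidation genes 8 were positive and none passed, with 3 at an unadjusted p under 0.05 (limma), from the short-chain dehydrogenase Acads at -1.80 (adjusted p = 0.307) to the hydratase Echs1 at 1.14 (adjusted p = 0.634). Acads had its aged mean below the limit for dim probe sets and was tested only through its young arrays. The groups did not overlap for 3 of the 16, against 16.2% of all tested probe sets. Acads and Acaa2 (-1.06, limma adjusted p = 0.0939) were lower in aged muscle, and Acadsb (1.04, limma adjusted p = 0.118) was higher. Echs1 had log2 signals of 10.88, 10.96 and 10.34 in aged and 10.61, 10.42 and 7.70 in young muscle. Young replicate 3 stood far below the other arrays, and without it the Echs1 change was 0.21.

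The electron transfer genes, which pass electrons from the dehydrogenases to the respiratory chain, were at -0.66 for Etfa and 0.016 for Etfdh, with Etfb between them and a median of -0.45. Etfa was at -0.39 without aged replicate 51 and at -0.43 without young replicate 1. None of the 3 passed, with 1 at an unadjusted p under 0.05 (limma), against 10% of all tested probe sets. In 7 peroxisomal genes the median was 0.032 and the lowest was the transporter Abcd3 at -0.23 (-0.45 to -0.056 with 1 array left out). Acaa1b was the 1 gene of the 7 with an unadjusted p under 0.05 (limma). Of 13 regulators and targets 9 were positive with a median of 0.43. None passed, with 0 at an unadjusted p under 0.05 (limma). Ppara, the nuclear receptor that drives fatty acid oxidation genes, was highest at 1.96 ± 0.94 (adjusted p = 0.517), with young arrays between 7.15 and 10.40. Its young mean lay below the limit for dim probe sets, so it was tested only through its aged arrays, and without young replicate 2 it was at 2.96. Pdk4, which turns fuel use from glucose to fat, was lowest at -0.48 (adjusted p = 0.609, and -0.80 to -0.31 with 1 array left out).

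**Figure D4:**
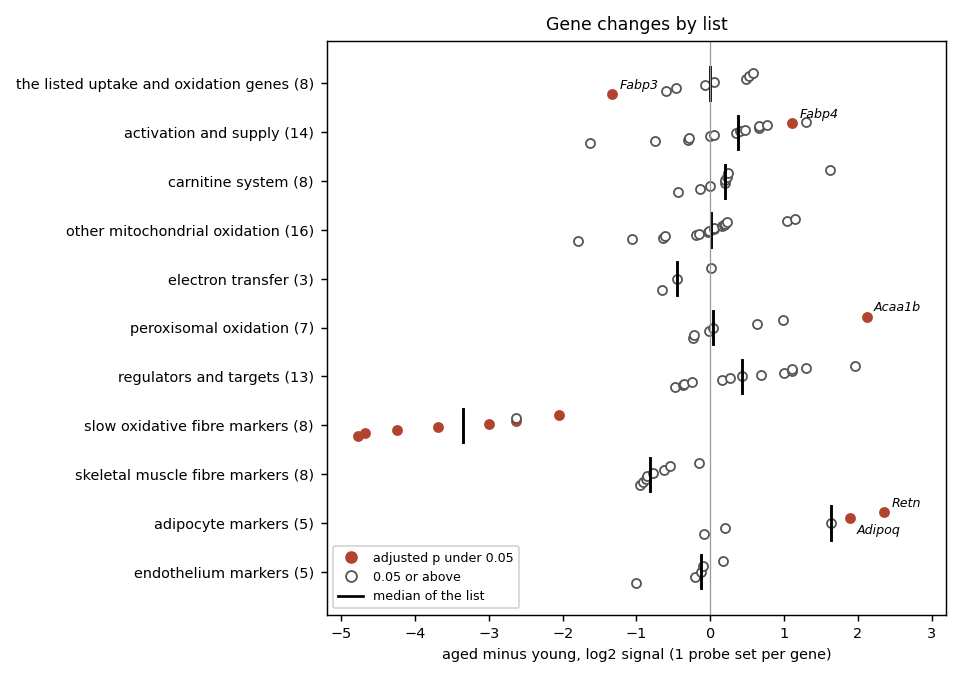
Change of each tested gene in aged minus young muscle (x axis, log2 signal, 1 probe set per gene) for the listed uptake and oxidation genes, 6 lists of related genes and 4 lists of cell type markers (y axis, number of tested genes in brackets). Red points have an adjusted p under 0.05 and black bars are medians. Fabp3, Fabp4 and Acaa1b are the red points of the fatty acid lists, and 7 of 8 slow fibre markers are red.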

How the data were processed

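Total RNA of gastrocnemius was labelled with biotin and hybridised to 6 Affymetrix Mouse430_2 arrays, 1 per sample, per the labels' protocols and the run settings. The deposited values are 1 linear intensity for each probe set. The submitters' processing notes name MAS5. Each array had been scaled to a mean of 1500 after trimming 2% at each end, as the values show, and such scaling can shift all changes of an array together. Of the other deposited values, only the fluidics station and protocol of the run settings were read.

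Intensities were taken to log2, 64 control probe sets were left out, and so were probe sets with a 6-array mean below 9.08 on that scale, the median. Aged was set against young muscle with limma 3.58.1 under R 4.3.3 (lmFit, eBayes with trend). The brightest probe set stood for a gene, and genes were named from the platform's table. All 10 listed genes are named with every probe set. Of each related list the called genes and the highest and lowest gene are named, and for Cd36, Fabp3 and Hadha the 3 probe sets with the most similar profile. The members and lists were chosen with earlier results of these data known. Steps were tested on simulated data. Other settings were median centring, quantile normalization, no filter or one at the 75th percentile, a pseudocount of 219, no trend, the station or the RNA quality ratio as a covariate, each array left out, and probe sets averaged. The arrays of the first station alone, and all alternatives for the related genes, were added after seeing the data.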

Additional observations from a re-analysis of the deposited data

How the results depend on the processing

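The number of arrays limits the precision. Of 22519 probe sets 237 were called, 124 to 342 with 1 array left out, 138 with the RNA quality ratio as a covariate, 365 within the first station and 21 without the trend. Of the member probe sets 0 or 1 passed with 1 array left out. With limma, 0 passed without the trend (1 at an unadjusted p under 0.05), 0 with the station (3) or the RNA quality ratio (1) as a covariate, and 0 within the first station (3). The 7 members other than Fabp3 passed in 0 of 111 fits on their brightest probe sets (lowest adjusted p 0.0619). The median of the 8 tested members was -0.01, with -0.28 in both station settings and -0.089 to 0.37 with 1 array left out. For uptake and carriage it was 0.53, which is the value of Cd36 and lies between Fabp3 at -1.33 and Slc27a1 at 0.58. This median was 0.41 after median centring, 0.40 with the ratio as a covariate, 0.025 in both station settings and 0.34 with probe sets averaged. With 1 array left out it was 0.37 to 0.55. Carnitine entry, which is Cpt2 alone, was at -0.59, with -2.99 in both station settings and -1.22 to 0.61 with 1 array left out. The dehydrogenases were at -0.08, with -0.34 in both station settings, -0.47 with probe sets averaged and -0.16 to 0.037 with 1 array left out. Hadhb, for the trifunctional protein, was at 0.49, with 0.093 in both station settings, 0.085 with the ratio as a covariate and 0.28 to 0.68 with 1 array left out.

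Cpt2 was at 0.61 without aged replicate 51 (-1.22 to 0.61 with 1 array left out), and Acadl at 0.038 after quantile normalization and 0.037 without young replicate 1 (-0.16 to 0.037 with 1 array left out). Acadm was at -0.061 after median centring, -0.34 in both station settings, -0.18 with the ratio as a covariate, -0.015 without aged replicate 52 and -0.075 without aged replicate 53 (-0.075 to 0.25 with 1 array left out). Etfdh was at -0.10 after median centring, -0.063 in both station settings, -0.035 without aged replicate 52 and -0.16 without young replicate 3 (-0.16 to 0.18 with 1 array left out). Plin2 passed without aged replicate 51 (1.69, adjusted p = 0.038), and Acaca passed without the filter (adjusted p = 0.0237), with the pseudocount (adjusted p = 0.0432) and without young replicate 3 (adjusted p = 0.043). The median change of all tested probe sets was -0.025 under quantile normalization and -0.11 under median centring. The cause of these shifts was not tested. No paired analysis was possible because the aged and young samples share no replicate number.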
